A study of Mus musculus with 6 samples.

Results

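The untreated control group of an L929 experiment was described across its genes: 3 of the 6 samples of the series, chosen by their titles, which name them as controls. L929 is a mouse fibroblast cell line, established as a clone from connective tissue, and all 3 samples carry the genotype label WT. The cells were grown in DMEM with 10% fetal bovine serum and antibiotics, under 5% CO2 at 37 °C, and received no agent, although the label on handling lists TNF-α and actinomycin D for every sample of the series. The other 3 samples, given both agents, were not analysed here. The labels do not say whether the controls were separate cultures, so the spread between them may be technical, and no statement below extends to L929 cells kept elsewhere.

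Fibroblasts make and secrete the collagens and glycoproteins of connective tissue, fold them in the endoplasmic reticulum with dedicated chaperones, and keep a record of their position in the body as a set of active HOX genes. L929 cells are known in the laboratory for a pair of uses: medium conditioned by them supplies macrophage colony-stimulating factor (the product of Csf1) to macrophage cultures, and they die on exposure to TNF. TNF binds TNF receptor 1, which assembles a complex of adaptor proteins, ubiquitin ligases and the kinase RIPK1. That complex drives inflammatory transcription, and under other conditions it gives way to caspase-8, or to the kinase RIPK3 and its substrate MLKL, which permeabilises the plasma membrane in necroptosis.

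The gene count table held 18036322, 16056207 and 17449498 counts for control libraries 1, 2 and 3, as the table numbers them, and 19219, 20116 and 19688 of the 54532 annotated genes had a count in them. Levels are given as TPM, counts divided by the deposited gene length and scaled to 1 fixed sum in each library. Each gene has 1 deposited length, and whether it matches the transcripts made in these cells was not tested. Ranks and comparisons of level between genes depend on that length. A gene is counted as expressed where it reached 1 TPM in each of the 3 libraries. By that rule 12479 genes were expressed, 10552 of them protein-coding. Another 31557 genes, of which 7058 were protein-coding, had no count in any library. A count of 0 over the group's 51542027 counts allows a level of up to 0.0582 CPM (counts scaled to the library total), from 3 counts and for counting error only. Protein-coding genes took 87.7% ± 0.2 of all TPM (SD, n = 3) and processed pseudogenes 8.40% ± 0.17. As a share of counts, without division by length, processed pseudogenes took 1.79% ± 0.10.

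Expression was spread over a wide range. Of the 22046 protein-coding genes, 126 had a mean over 1000 TPM and together took 28.3% of all TPM, 1485 lay between 100 and 1000 TPM and took 35.2%, and 6138 lay between 10 and 100 TPM and took 22.6%. Another 3122 genes lay between 1 and 10 TPM and took 1.47%. The 100 most abundant genes of a library took 28.8% ± 0.7 of its TPM (SD, n = 3). Among the 25 most abundant nuclear protein-coding genes, 15 encoded cytosolic ribosomal proteins, led by Rplp1, a protein of the ribosomal stalk, with 10447, 8569 and 9692 TPM in libraries 1, 2 and 3. The ribosomal protein genes as a family took 14.4% ± 0.8 of all TPM. The other 10 held the translation elongation factor gene Eef1a1 (8427 ± 306 TPM), the galectin gene Lgals1 (7394 ± 572 TPM) and the calcium-binding protein gene S100a11 (6046 ± 252 TPM). They also held the cytoskeletal actin gene Actb (5354 ± 349 TPM), the ferritin heavy chain gene Fth1 (5079 ± 471 TPM), and 2 chaperone genes, Hspa5 of the endoplasmic reticulum (3602 ± 263 TPM) and Hsp90ab1 of the cytosol (3529 ± 148 TPM). B2m, the light chain of MHC class I, had 3373 ± 269 TPM, the cytokine gene Mif had 2824 ± 294 TPM, and the remaining member was the predicted gene Gm11361 with 3116 ± 332 TPM. The coefficient of variation (CV, the SD as a percent of the mean) of these 25 genes ran from 2.17% to 10.6%, so several neighbours in this order differ by less than their spread, Rplp0 (7926 ± 596 TPM) and Rpl41 (7921 ± 614 TPM) among them.

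**Figure D1:**
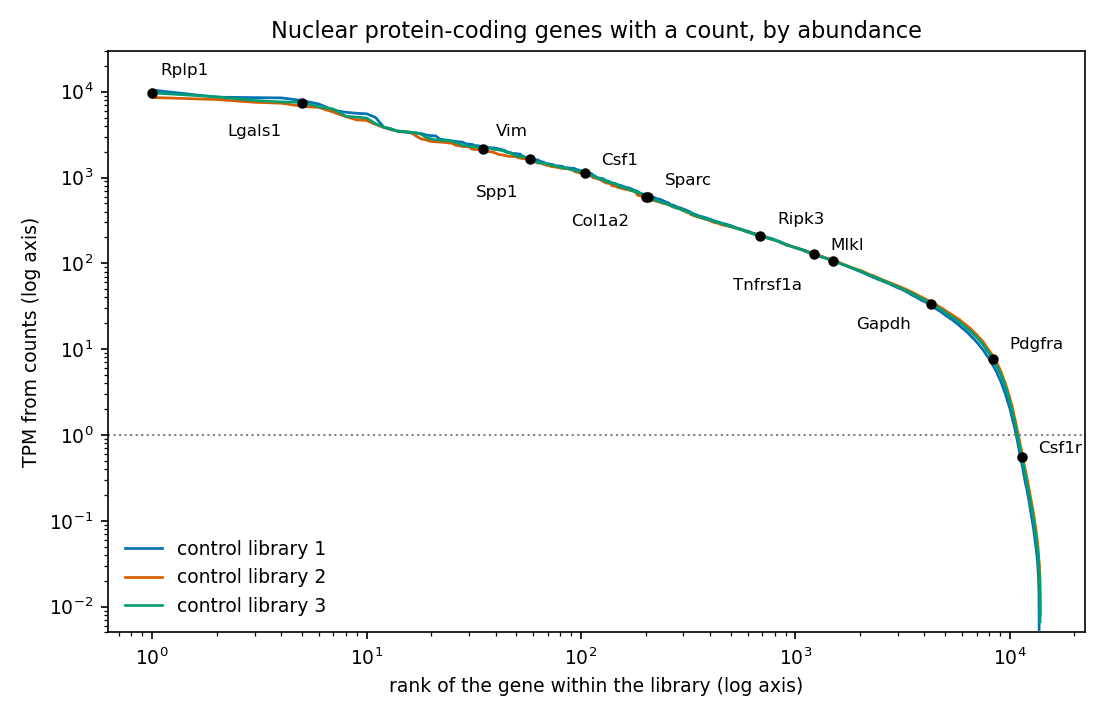
TPM (log axis) of every nuclear protein-coding gene with a count against its rank within the library (log axis), with 1 line for each control library and black points at the 3-library mean of named genes. The 3 lines lie on each other over most of the range, with Rplp1 at rank 1, Csf1 at rank 104, Ripk3 at rank 686 and Pdgfra at rank 8314, and the dotted line marks 1 TPM.

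The 5 genes used as markers of these cells ranked from 104 to 8314 among nuclear protein-coding genes. Csf1 had 39132, 31901 and 35037 counts in libraries 1, 2 and 3, a level of 1123 ± 29 TPM (SD, n = 3) at rank 104. Sparc, a collagen-binding matrix glycoprotein, had 14712, 11987 and 13294 counts and 590 ± 13 TPM. Ripk3, the necroptosis kinase, had 3119, 2551 and 2860 counts and 208 ± 3.50 TPM at rank 686. Tnfrsf1a, which encodes TNF receptor 1, had 1875, 1399 and 1717 counts and 107 ± 7 TPM at rank 1491. Pdgfra, the alpha receptor for platelet-derived growth factor, was far lower, with 468, 401 and 509 counts and 7.69 ± 0.62 TPM at rank 8314. All 5 were expressed, with a CV from 1.68% for Ripk3 to 8.03% for Pdgfra. Promoter windows are shown for Csf1, whose product L929 medium supplies, and for Ripk3, a kinase gene of necroptosis. The windows are chr3:107760420-107760719 for Csf1 and chr14:55788808-55789107 for Ripk3, both minus strand. Each runs from 250 bases before the RefSeq start to 50 after it, on build GRCm38.p6, with each CG dinucleotide in capitals.
Csf1: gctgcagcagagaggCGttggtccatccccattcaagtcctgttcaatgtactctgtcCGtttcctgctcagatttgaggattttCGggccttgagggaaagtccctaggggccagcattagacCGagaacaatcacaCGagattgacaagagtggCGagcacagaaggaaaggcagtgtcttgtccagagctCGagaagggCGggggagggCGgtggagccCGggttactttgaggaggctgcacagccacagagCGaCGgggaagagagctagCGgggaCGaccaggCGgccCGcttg
Ripk3: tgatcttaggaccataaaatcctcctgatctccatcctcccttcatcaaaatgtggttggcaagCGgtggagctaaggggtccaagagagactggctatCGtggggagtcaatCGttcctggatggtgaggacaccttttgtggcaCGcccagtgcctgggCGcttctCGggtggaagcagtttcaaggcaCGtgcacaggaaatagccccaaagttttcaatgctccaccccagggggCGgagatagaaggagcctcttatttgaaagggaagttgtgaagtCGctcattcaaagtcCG
The Csf1 window held 16 CG dinucleotides and the Ripk3 window 10, and both contained the letters GGGCGG on 1 strand or the other.

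Genes of fibroblast identity were expressed in part. Of 40 genes that mark fibroblasts and mesenchyme, 22 were expressed, 11 had a count but stayed below 1 TPM in at least 1 library, and 7 had no count. For comparison, 47.9% of all protein-coding genes were expressed and 32.0% had no count. Vim, for the intermediate filament vimentin, had 2314, 2081 and 2068 TPM in libraries 1, 2 and 3. The collagen type I genes Col1a2 (600 ± 18 TPM) and Col1a1 (486 ± 41 TPM), the fibronectin gene Fn1 (311 ± 7 TPM) and the integrin gene Itgb1 (327 ± 52 TPM) followed. The mesenchymal transcription factor genes Snai1 (66.5 ± 2.3 TPM), Snai2 (16.9 ± 4.6 TPM), Twist2 (15.2 ± 2.2 TPM) and Prrx1 (6.55 ± 1.19 TPM) were expressed, and Pdgfrb, the beta receptor for platelet-derived growth factor, had 57.0 ± 1.7 TPM against the 7.69 ± 0.62 TPM of Pdgfra. The members with no count were Cdh11, Dcn, Fap, Lum, Nt5e, Tcf21 and Twist1. Dcn and Lum encode the small proteoglycans decorin and lumican, which are abundant in most connective tissue, and Fap and Nt5e are surface proteins used to sort fibroblasts and stromal cells. Thy1, another sorting marker, had 0, 2 and 4 counts, and Acta2, the smooth muscle actin of contractile fibroblasts, had 2, 1 and 1. These are levels in bulk RNA, where fewer cells of a type and less RNA per cell cannot be told apart.

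Collagen chain genes were expressed at about the rate of all protein-coding genes, and the genes that fold and modify collagen summed to 5996 ± 278 TPM against 3357 ± 97 TPM for the chains. Of 44 collagen chain genes 20 were expressed (45.5%), 12 of them at 100 TPM or more. The expressed chains took in fibrillar types I, III and V, the basement membrane chains Col4a1 (236 ± 8 TPM) and Col4a2 (205 ± 15 TPM), the type VI chains Col6a1 (316 ± 20 TPM), Col6a2 (97.1 ± 8.5 TPM) and Col6a3 (147 ± 3 TPM), and Col18a1 (211 ± 11 TPM). Of 29 collagen and elastin processing genes 23 were expressed (79.3%, against 47.9% of all protein-coding genes). Serpinh1, the collagen chaperone HSP47, had 2440, 2145 and 2276 TPM, and P4hb, a subunit of the prolyl hydroxylase, had 1538 ± 71 TPM. The crosslinking enzymes were uneven: Loxl1 had 198 ± 14 TPM and Loxl3 42.5 ± 1.8 TPM, while Lox itself had 3, 2 and 1 counts. Of 60 matrix glycoprotein and proteoglycan genes 34 were expressed (56.7%, against the same 47.9%). They were led by Spp1 (osteopontin, 1624 ± 291 TPM), Igfbp6 (1165 ± 110 TPM), Sparc, Fbln2 (548 ± 18 TPM) and Bgn (biglycan, 345 ± 16 TPM). The elastin gene Eln and the hyaluronan synthase gene Has2 had no count, and Postn (periostin), Tnc (tenascin C), Thbs1 and Ctgf stayed below 0.1 TPM on average. Among 25 proteases and inhibitors of the matrix, the inhibitor genes Timp1 (874 ± 59 TPM) and Timp2 (197 ± 10 TPM) stood at higher levels than the membrane protease gene Mmp14 (93.8 ± 3.9 TPM) and the gelatinase gene Mmp2 (8.42 ± 2.02 TPM). The collagenase and stromelysin genes Mmp13, Mmp3 and Mmp10 had no count.

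**Figure D2:**
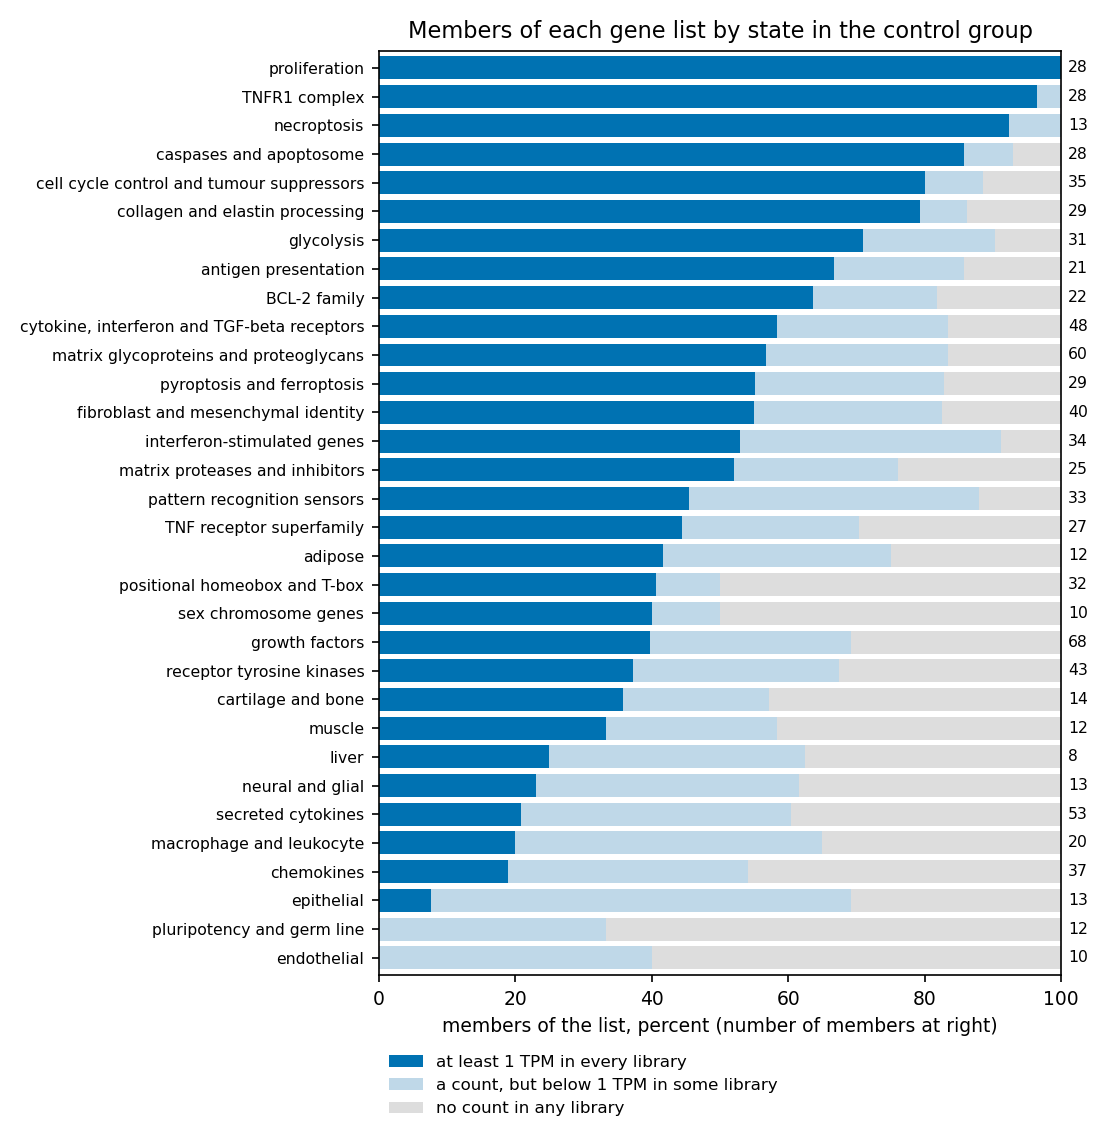
For each of 32 gene lists, the percent of members (horizontal axis) that were expressed in every control library (dark), had a count without reaching 1 TPM in every library (light) or had no count (grey), with the number of members at the right. Lists of cell division and TNF receptor signalling stand at the top, where 28 of 28 and 27 of 28 members were expressed, and endothelial and pluripotency lists at the bottom, where 0 of 10 and 0 of 12 were.

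Markers of other lineages were mostly low, with named exceptions. Over all protein-coding genes, 47.9% were expressed and 32.0% had no count. No endothelial marker of 10 was expressed, and their summed level was 0.339 ± 0.077 TPM (0.267 to 0.420 over libraries), with Kdr, Tie1, Erg, Emcn, Cldn5 and Sox17 at 0 counts. Of 13 epithelial markers only the keratin gene Krt14 was expressed (8.05 ± 1.20 TPM); Cdh1, the epithelial cadherin, had a mean of 0.0234 TPM, and Epcam had no count. None of 12 pluripotency and germ line genes was expressed, and Pou5f1 and Nanog had no count. Of 13 neural and glial markers, Mbp (2.15 ± 0.34 TPM), Nes (1.81 ± 0.47 TPM) and Gfap (1.43 ± 0.29 TPM) were expressed. Of 20 macrophage and leukocyte markers 4 were expressed, the invariant chain gene Cd74 at 274 ± 23 TPM and Cd14, Cd68 and Lyz2 at 10.3 ± 1.0, 6.14 ± 0.80 and 5.70 ± 0.48 TPM. Ptprc, the pan-leukocyte phosphatase CD45, had 0, 0 and 1 counts, the myeloid transcription factor gene Spi1 had none, and the summed level of the list ran from 276 to 322 TPM, mostly Cd74.

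Lists of other mesenchymal fates had 41.7% (adipose), 35.7% (cartilage and bone) and 33.3% (muscle) of members expressed, against 47.9% of all protein-coding genes. With 12, 14 and 12 members, these shares differ from the 47.9% by few genes, so no depletion is read from them. Of 12 adipose genes 5 were expressed: the transcription factor genes Cebpb (343, 266 and 266 TPM in libraries 1, 2 and 3), Pparg (25.4 ± 0.5 TPM) and Cebpd (12.8 ± 1.3 TPM), the lipase gene Lpl (53.9 ± 17.2 TPM) and the fatty acid binding protein gene Fabp4 (47.2 ± 2.6 TPM). The markers of mature fat cells were at or near 0, with no count for Cebpa and Lep, and averages of 0.120 TPM for Adipoq and 0.0607 TPM for Plin1. Of 14 cartilage and bone genes 5 were expressed: Spp1, Runx2 (17.2 ± 1.7 TPM), Sox9 (13.3 ± 1.4 TPM), Comp (2.37 ± 0.61 TPM) and Sp7 (1.67 ± 0.61 TPM). Acan, Ibsp and Sost had no count. Of 12 muscle genes, the skeletal actin gene Acta1 (92.4 ± 10.2 TPM), the cardiac troponin gene Tnnt2 (36.4 ± 2.9 TPM), the desmin gene Des (20.5 ± 2.1 TPM) and the transcription factor gene Pax3 (7.42 ± 1.44 TPM) were expressed, with no count for the myogenic regulators Myod1, Myf5 and Myog. Acta1 lies in a family of near-identical actin genes, where reads that fit several members could make the level of a single one uncertain. The neighbouring liver and fetal serum protein genes Afp (31.9 ± 1.8 TPM) and Alb (16.4 ± 1.3 TPM) were expressed as well, while Ttr, Serpina1a and Fgb had no count. The summed level of the 8 liver markers was 48.6 ± 0.9 TPM.

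The HOX genes were active in contiguous blocks. These transcription factor genes lie in 4 clusters, are numbered along each cluster, and are used in order along the body axis, so that their state records position. In the HOXA cluster 9 of 11 genes were at 1 TPM or more, every one from Hoxa2 to Hoxa10 among them, rising to 45.0, 43.0 and 38.4 TPM for Hoxa10, while its next neighbours Hoxa11 and Hoxa13 had no count. In the HOXB cluster 9 of 10 genes were at 1 TPM or more, with the highest level at Hoxb9 (99.5, 98.0 and 94.6 TPM), and Hoxb13 had 9.37 ± 1.01 TPM. In the HOXC cluster Hoxc4 to Hoxc10 were expressed, up to 99.8 ± 5.8 TPM at Hoxc10, and Hoxc11, Hoxc12 and Hoxc13 had 14, 1 and 1 counts over the group. In the HOXD cluster only Hoxd8 (39.8 ± 4.2 TPM) and Hoxd9 (31.7 ± 1.2 TPM) were expressed, and Hoxd10 to Hoxd13 had no count. Hoxa10 and Hoxa11 are shown, again as windows of 250 bases before to 50 after the start with CG in capitals, because the level falls to 0 between these neighbours. The windows are chr6:52240805-52241104 and chr6:52245761-52246060 on GRCm38.p6, both minus strand, and RefSeq gives Hoxa10 another start that is not shown.
Hoxa10: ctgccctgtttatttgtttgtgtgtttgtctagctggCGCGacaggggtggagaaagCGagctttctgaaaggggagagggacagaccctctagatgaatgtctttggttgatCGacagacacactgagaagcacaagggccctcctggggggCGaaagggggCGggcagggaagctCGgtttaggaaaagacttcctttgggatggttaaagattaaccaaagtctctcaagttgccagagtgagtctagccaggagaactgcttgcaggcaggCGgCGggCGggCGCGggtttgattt
Hoxa11: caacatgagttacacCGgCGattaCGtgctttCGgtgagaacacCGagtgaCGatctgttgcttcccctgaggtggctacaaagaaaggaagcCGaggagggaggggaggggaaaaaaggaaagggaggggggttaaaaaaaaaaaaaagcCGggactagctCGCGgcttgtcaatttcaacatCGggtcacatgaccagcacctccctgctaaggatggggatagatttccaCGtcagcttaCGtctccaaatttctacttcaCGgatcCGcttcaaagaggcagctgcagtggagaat
The Hoxa11 window held 15 CG dinucleotides, and the Hoxa10 windows held 12 at the start shown and 21 at the other, so these counts do not order the silent and the expressed gene. Of 32 other homeobox and T-box genes of body position, 13 were expressed and 16 had no count. Tbx15 (35.4 ± 4.7 TPM), Shox2 (27.8 ± 4.7 TPM), Msx1 (21.4 ± 3.2 TPM), and En1 (17.9 ± 1.0 TPM) were among the highest, and the limb genes Tbx4, Tbx5, Pitx1 and Hand2 had no count.

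**Figure D3:**
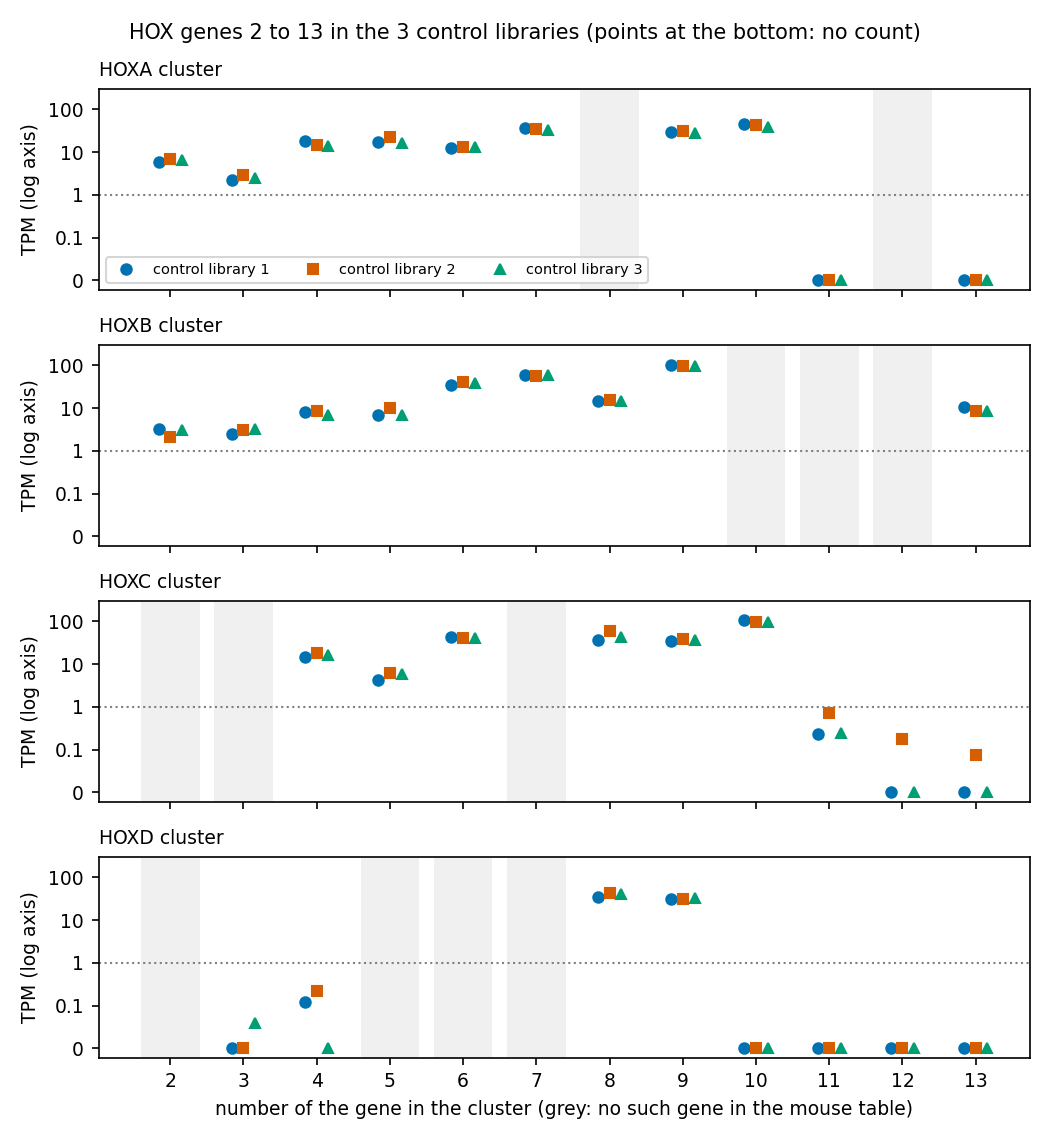
TPM (log axis, points at the bottom have no count) of each HOX gene numbered 2 to 13 by its number in the cluster, in the 3 control libraries, with 1 panel for each of the 4 clusters. Hoxa2 to Hoxa10, Hoxc4 to Hoxc10 and the pair Hoxd8 and Hoxd9 lie above the dotted line at 1 TPM in every library, and Hoxa11 lies at 0 in each.

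Cell division genes were all on, and a pair of brakes was not counted. Each of 28 proliferation genes was expressed (100%, against 47.9% of all protein-coding genes), with a median level of 144 TPM. Rrm2, a subunit of ribonucleotide reductase, had 498, 532 and 507 TPM, and Pcna, the DNA polymerase clamp, had 362 ± 12 TPM. Mki67, the marker of cycling cells, had 25.8, 116 and 55.6 TPM and so differed widely between libraries. Top2a, given below, differed in the same order, while Aurkb, also of mitosis, had 109 TPM in each library. Among 35 genes of cell cycle control and tumour suppression, Cdk4 (529 ± 32 TPM), Ccnd1 (cyclin D1, 456 ± 9 TPM), Myc (211 ± 4 TPM) and Trp53 (206 ± 8 TPM) led. The inhibitor genes Cdkn2c (123 ± 9 TPM), Cdkn2d (69.4 ± 5.8 TPM) and Cdkn1a (42.1 ± 3.8 TPM) were expressed, and Rb1 had 10.6 ± 2.9 TPM. Cdkn2a, which encodes the inhibitors p16 and p19ARF, and its neighbour Cdkn2b had no count in any library. Of the genes around them on chromosome 4, the transcript Gm12606 next to Cdkn2a had no count either. Farther out, Mtap had 82, 127 and 108 counts on 1 side and the transcript Gm12610 had 60, 90 and 91 on the other. RNA counts do not tell a deleted gene from a silent one. Cdkn2a (chr4:89274471-89294653, minus strand) is shown for the first of its 2 RefSeq starts (chr4:89294570-89294869, GRCm38.p6), because a gene without a count has here a window dense in CG.
Cdkn2a: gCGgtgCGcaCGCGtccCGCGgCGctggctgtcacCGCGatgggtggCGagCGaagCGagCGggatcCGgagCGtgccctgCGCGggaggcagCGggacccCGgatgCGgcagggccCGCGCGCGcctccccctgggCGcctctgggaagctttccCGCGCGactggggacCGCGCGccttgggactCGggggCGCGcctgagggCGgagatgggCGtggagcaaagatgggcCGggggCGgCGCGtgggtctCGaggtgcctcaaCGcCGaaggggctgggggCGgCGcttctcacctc
This window held 45 CG dinucleotides against 12 in that of the other start, and 77.0% of its bases were G or C.

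Of 27 genes of the TNF receptor superfamily 12 were expressed (44.4%) and 8 had no count, near the shares of all protein-coding genes (47.9% and 32.0%). Tnfrsf12a, the receptor for TWEAK, had 786, 726 and 732 TPM and was the highest, followed by Ltbr (123 ± 9 TPM) and Tnfrsf1a (113, 99.8 and 110 TPM). Cd40 had 1056, 883 and 985 counts and Tnfrsf1b, for TNF receptor 2, had 35.7 ± 3.0 TPM. The death receptor gene Tnfrsf10b had 22.5 ± 1.2 TPM, while Fas, another classical death receptor gene, had 2, 8 and 4 counts and stayed below 1 TPM. The decoy receptor genes Tnfrsf22 and Tnfrsf23 had 28.5 ± 2.8 and 14.6 ± 0.4 TPM, and as near-identical copies they may share reads.

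Within the TNF receptor 1 complex 27 of 28 genes were expressed (96.4%), against 47.9% of all protein-coding genes. The deubiquitinase gene Otulin (134 ± 4 TPM), the linear ubiquitin ligase subunit gene Rbck1 (87.5 ± 2.8 TPM), the adaptor genes Tradd (54.2 ± 4.8 TPM) and Traf2 (43.8 ± 1.5 TPM) and the kinase gene Map3k7 (37.5 ± 6.4 TPM) were well above the kinase gene Ripk1, which had 14.1, 18.5 and 17.1 TPM. The ligase genes were uneven: Birc2 had 10.4 ± 2.9 TPM and Birc3 had 7, 9 and 3 counts and did not reach 1 TPM. The feedback deubiquitinase gene Tnfaip3 had 4.45 ± 0.10 TPM. Of 13 necroptosis genes 12 were expressed. Ripk3 had 212, 206 and 206 TPM and Mlkl 121, 138 and 123 TPM, both above Ripk1 in every library. The nucleic acid sensor gene Zbp1, which can also engage RIPK3, had 1, 0 and 3 counts.

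Most apoptosis genes were expressed: 85.7% of the caspase and apoptosome list and 63.6% of the BCL-2 family, against 47.9% of all protein-coding genes. Of 28 caspase and apoptosome genes 24 were expressed, among them the initiator gene Casp8 (31.7, 37.1 and 29.4 TPM) and its inhibitory relative Cflar (14.7 ± 1.6 TPM). The apoptosome genes Apaf1 (15.1 ± 1.8 TPM) and Casp9 (7.73 ± 0.27 TPM) were lower than Casp8, and cytochrome c, Cycs, was the highest at 222 ± 5 TPM. In the BCL-2 family 14 of 22 members were expressed: the survival genes Mcl1 (416 ± 8 TPM) and Bcl2l1 (74.9 ± 6.2 TPM) and the pore-forming effector genes Bax (221 ± 13 TPM) and Bak1 (89.3 ± 8.1 TPM). Bcl2 itself had 2.43, 4.34 and 3.83 TPM. The BH3-only gene Pmaip1 and the annotated Bcl2a1 copies had no count. Of 29 genes of pyroptosis and ferroptosis 16 were expressed (55.2%, against 47.9% of all protein-coding genes). The gasdermin genes Gsdmd (7.86 ± 1.08 TPM) and Gsdme (3.06 ± 0.70 TPM) and Casp1 (20.2, 30.4 and 24.3 TPM) were expressed, but the inflammasome adaptor gene Pycard had 3, 2 and 1 counts and its sensor gene Nlrp3 a mean of 0.102 TPM. Gpx4, the lipid peroxidase that restrains ferroptosis, had 547 ± 47 TPM, and Slc7a11, its cystine supplier, had 9.19 ± 3.59 TPM.

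**Figure D4:**
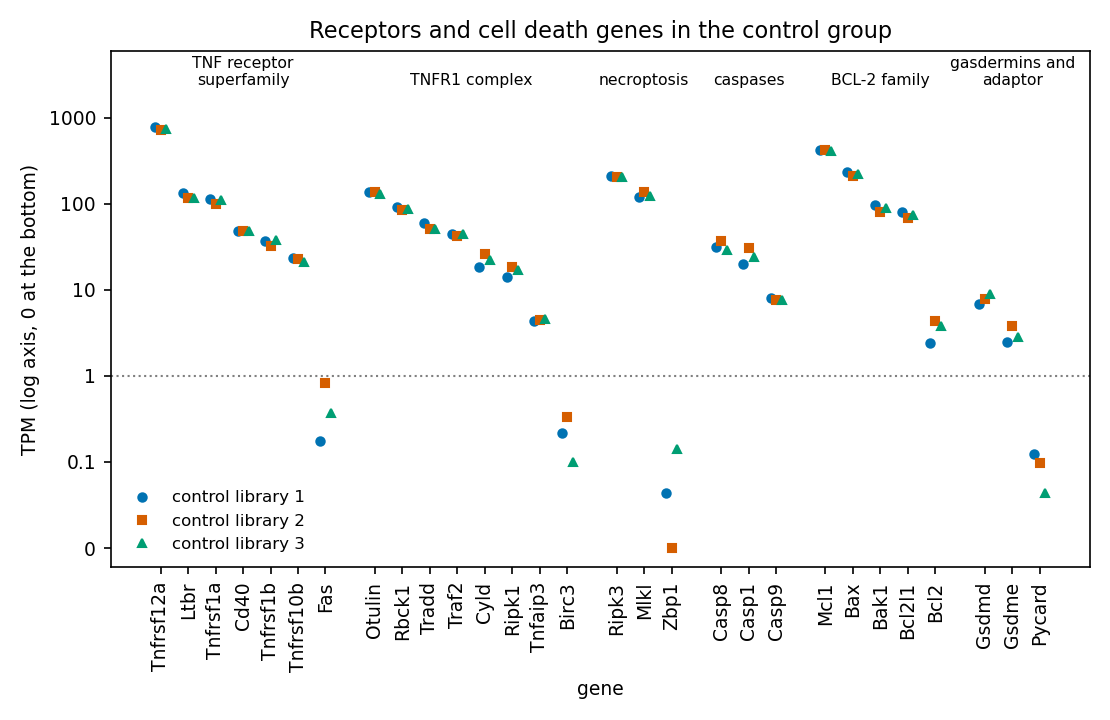
TPM (log axis, 0 at the bottom) in each of the 3 control libraries of genes for TNF receptors, the TNF receptor 1 complex, necroptosis, caspases, the BCL-2 family and pyroptosis. Ripk3 and Mlkl lie above 100 TPM and Ripk1 between 14.1 and 18.5 TPM, and Fas, Birc3, Zbp1 and Pycard lie below the dotted line at 1 TPM.

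Cytokine and chemokine genes were expressed at lower rates (20.8% and 18.9%) than all protein-coding genes (47.9%). Growth factor genes were expressed at a rate nearer to that share (39.7%). Some of these secreted signals stood at high levels. Of 53 cytokine genes 11 were expressed and 21 had no count. Mif had 3119, 2531 and 2821 TPM, Csf1 1123 ± 29 TPM, and after them the levels dropped to Clcf1 (46.9 ± 2.5 TPM) and Il34 (43.4 ± 3.2 TPM), whose product is another ligand of the Csf1 receptor. Tnf was expressed at 12.0, 13.6 and 9.59 TPM, from 126, 121 and 95 counts. Lif had 13.7 ± 1.2 TPM, and Il6 had 0.986 ± 0.409 TPM and missed the threshold in at least 1 library. The other colony-stimulating factor genes were at or near 0, with no count for Csf2 and a mean of 0.152 TPM for Csf3. Of 37 chemokine genes 7 were expressed, headed by the monocyte attractants Ccl2 (356, 390 and 387 TPM) and Ccl7 (323, 310 and 328 TPM), which lie side by side on chromosome 11, with the neutrophil attractant Cxcl1 at 44.1 ± 2.5 TPM. Cxcl12, a chemokine common in stromal cells, had 0.223 ± 0.057 TPM. Of 68 growth factor genes 27 were expressed, among them Hdgf (731 ± 29 TPM), Vegfa (132 ± 14 TPM) and Gdf15 (106 ± 8 TPM). Hgf, Igf2, Wnt5a and Bmp2 had no count.

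Set against their receptors, some of these signals had a partner expressed in the same cells and some had not. Of 31 ligand and receptor pairs, both genes were expressed in 10, the ligand alone in 10, the receptor alone in 10 and neither in 1. The Csf1 receptor gene, Csf1r, had 23, 7 and 19 counts, 0.548 ± 0.249 TPM. Fgf7 (27.8 ± 9.6 TPM) was expressed with no count for its receptor gene Fgfr2, and Hbegf (50.9 ± 1.4 TPM) with 0, 2 and 1 counts for Egfr. In the other direction, the receptor kinase gene Axl (132, 133 and 138 TPM) was expressed while its ligand gene Gas6 had 0, 1 and 0 counts, and Met (17.3 ± 2.1 TPM) and Osmr (30.9 ± 6.4 TPM) were expressed with no count for Hgf and Osm. The pairs with both genes expressed included Tnf with Tnfrsf1a, Tnfsf12 (6.43 ± 0.72 TPM) with Tnfrsf12a, Pdgfa (65.5 ± 3.6 TPM) with Pdgfra, and Tgfb1 (34.7 ± 3.6 TPM) with Tgfbr2 (29.2 ± 0.7 TPM). Of 43 receptor tyrosine kinase genes 16 were expressed (37.2%, against 47.9% of all protein-coding genes). Axl, Epha2 (124 ± 3 TPM) and the collagen receptor Ddr2 (61.6, 113 and 94.3 TPM) were the highest. Of 48 receptor genes for cytokines, interferons and the TGF-beta family 28 were expressed (58.3%), led by the shared signalling subunit Il6st (91.1 ± 9.1 TPM). Both chains of the type I interferon receptor were present, Ifnar1 at 30.0 ± 0.4 TPM and Ifnar2 at 35.4 ± 0.8 TPM.

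Of 33 genes that sense nucleic acid and bacterial products 15 were expressed (45.5%), close to the 47.9% of all protein-coding genes. The DNA sensor gene Aim2 (44.4, 76.9 and 61.9 TPM) and the adaptor genes Myd88 (58.1 ± 3.7 TPM), Mavs (47.0 ± 2.8 TPM) and Ticam1 (23.6 ± 1.3 TPM) led, with the cGAS gene Mb21d1 at 7.57 ± 1.52 TPM and the STING gene Tmem173 at 17.8 ± 2.0 TPM. The RNA sensor genes Ddx58 (0.723 ± 0.214 TPM), Ifih1 (0.256 ± 0.053 TPM) and Tlr3 (0.315 ± 0.069 TPM) were below 1 TPM. Of 34 interferon-stimulated genes 18 were expressed (52.9%), near the 47.9% of all protein-coding genes. The membrane protein genes Ifitm3 (808 ± 17 TPM), Ifitm2 (419 ± 43 TPM) and Bst2 (150 ± 5 TPM) were high, whereas Ifit1, Mx1 and Mx2 had no count. No type I interferon gene of 17 was expressed. MHC class I genes were high: H2-K1 had 988, 860 and 909 TPM and the peptide transporter genes Tap1 and Tap2 70.4 ± 5.1 and 30.1 ± 3.3 TPM. Class I genes resemble each other closely, so reads shared among them could make each level uncertain. Cd74 was expressed without the class II genes it serves, as H2-Aa and H2-Ab1 had no count and the class II regulator gene Ciita had 3, 5 and 6 counts.

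The sex chromosomes and the mitochondrial genome were uneven too. Of 183 protein-coding Y genes 181 had no count, including Ddx3y, Kdm5d, Eif2s3y and Uty. The exceptions were Gm47283, with 295, 361 and 388 counts, and Gm21860, with 0, 0 and 3. Whether their reads came from the Y chromosome or from like sequence elsewhere was not tested. Xist, the RNA that silences an X chromosome in female cells, had 0, 0 and 5 counts, and the X-linked gene Ddx3x had 129, 268 and 218 TPM. The 13 mitochondrially encoded mRNAs took 2.32% ± 0.69 of all TPM, and mt-Co1, for a subunit of the terminal oxidase, had 7245, 12154 and 9379 TPM. The genes mt-Co2 (79.9 ± 22.2 TPM), mt-Co3 (38.4 ± 14.4 TPM) and mt-Atp6 (26.4 ± 9.8 TPM) of the same genome were much lower. These last 3 genes have copies in the nuclear genome on chromosome 1, and those copies held counts of their own, for example 461, 430 and 404 in Gm28437, so the division of reads between them is uncertain.

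Of 31 glycolysis genes 22 were expressed (71.0%) and 3 had no count (9.68%), against 47.9% and 32.0% of all protein-coding genes. The list's median level was 30.0 TPM. The highest were Pkm at 1232 ± 84 TPM, Ldha at 1213 ± 75 TPM, Pgk1 at 918 ± 37 TPM and Eno1 at 842 ± 47 TPM. Gapdh, an enzyme of the same pathway, had 353, 366 and 1796 counts, or 13.3, 16.4 and 71.9 TPM, and its CV of 97.4% was the largest of the 9420 protein-coding genes with a mean of at least 100 counts. The 5 processed copies of Gapdh recognisable by their description held 1 count in all, and how its reads were assigned was not tested. Some ribosomal protein genes stood low beside their family. Rps2 had 80.7 ± 5.4 TPM while its copy Rps2-ps10 had 2820 ± 426 TPM, and Rpl24 (13.1 ± 4.8 TPM), Rpl29 (8.64 ± 0.67 TPM) and Rps10 (14.3 ± 2.1 TPM) lay far under the family median of 1350 TPM. Whether reads were divided between these genes and copies was not tested. Among reference genes, Actb, Ppia (1259 ± 88 TPM), Tubb5 (1763 ± 143 TPM) and Hprt (235 ± 19 TPM) had CVs between 6.52% and 8.13%.

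Whole families of tissue-restricted genes were silent. For comparison, 32.0% of all protein-coding genes had no count and 47.9% were expressed. Of 1135 olfactory receptor genes 1070 had no count and 1 was expressed, Olfr173 with 2.93 ± 0.74 TPM. No vomeronasal receptor gene of 329 was expressed, and all 57 keratin-associated protein genes, all 22 alpha-defensin genes and all 21 major urinary protein genes had no count. Of 210 T-cell receptor segments and 260 immunoglobulin segments, 208 and 259 had no count. Of 53 keratin genes 4 were expressed, Krt80 highest at 16.5 ± 0.6 TPM, and of 23 claudin genes 3 were, with Cldn12 (238 ± 18 TPM) and Cldn15 (194 ± 3 TPM) high. At the other end, 36 of 36 nuclear genes of respiratory complex I, 76 of 77 mitochondrial ribosomal protein genes and 37 of 39 proteasome genes were expressed, the exceptions Mrpl53, Psma8 and Psmb11 having 0, 0 and 2 counts in all. Along the chromosomes, 48 runs of at least 20 adjacent protein-coding genes had at most 3 counts each over the group, and they held 1912 genes. The longest covered 181 genes of the Y chromosome, and the next, 146 genes on chromosome 2, held 142 olfactory receptors.

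Promoter sequence differed between genes by level. RefSeq windows were matched to 16496 of 22033 nuclear protein-coding genes (74.9%). The median window held 3 CG dinucleotides for genes with no count, 7 below 1 TPM, 18 between 1 and 10 TPM, 22 between 10 and 100 TPM and between 100 and 1000 TPM, and 21 above 1000 TPM, against 14 over all windows. The letters GGGCGG, on either strand, were in 21.3% of windows of genes with no count, 69.2% of those between 10 and 100 TPM and 47.98% of all windows; this motif contains a CG and so moves with the CG count. TATAAA on either strand was in 24.3% of windows of genes with no count, 5.79% of those between 10 and 100 TPM, 16.7% of the 90 above 1000 TPM and 12.8% of all. CCAAT on either strand ranged only from 36.2% to 43.3% over the 6 classes. Transcription factor genes with no count had a median of 13 CG dinucleotides, closer to the median of all windows than to that of other silent genes. Of the 5 markers, Csf1 with 16 lay above the overall median, and Tnfrsf1a with 11, Ripk3 with 10, Pdgfra with 5 and Sparc with 4 lay below it, and Cdkn2a, with no count, held 45 at one start and 12 at the other. A match is a description of the letters in the window only.

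Between the 3 libraries, 80.6% of expressed protein-coding genes had a CV above the one that counting error gives, and a small part of the genes varied most widely. A CV from 3 libraries scatters around its true value, so counting error alone also puts some genes above that line. That share was not computed, and the 80.6% is not to be read against 0. The median CV of the 12479 expressed genes was 9.38%, 52.4% of them had a CV under 10%, and 4.34% had one over 50%. Counting error alone gives a typical CV of 4.79% to protein-coding genes of 100 to 1000 counts, whose median CV was 9.12%, and of 0.797% to genes of 10000 counts or more, whose median was 6.08%. A common biological coefficient of variation, fitted by edgeR across 12611 genes, was 0.166, and it was 0.104 without library 1, 0.141 without library 2 and 0.228 without library 3. Libraries 1 and 2 stood farthest apart: 1115 expressed genes differed over 2-fold between them, 1049 of these higher in library 2, against 502 between libraries 1 and 3 and 376 between libraries 2 and 3. The steadiest genes with at least 100 counts were Pdia6, a protein folding enzyme gene, with 1281, 1282 and 1281 TPM, Aurkb and Cyr61. The least steady after Gapdh were Zfp518a (0.912, 6.60 and 2.71 TPM), Zfp292, Arhgap5 and Thoc2, the last with 2.57, 13.7 and 6.17 TPM.

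Genes with a wide spread shared a direction and a base composition. Of 242 protein-coding genes with at least 100 counts and a CV over 50%, 239 were highest in library 2 and lowest in library 1. Their median length was 8746.5 bases against 4607.5 over all genes of that abundance, and the median GC content of their longest transcript was 40.5% against 49.8%. Over all expressed protein-coding genes, those under 40% GC (568 genes) lay at a median log2 deviation from their own mean of −0.45 in library 1, 0.40 in library 2 and 0.05 in library 3. For those of 56% GC or more (1954 genes) the medians were 0.07, −0.05 and −0.01. The shift was graded: in the bins between, the library 1 median rose with GC content from −0.27 through −0.11 and −0.02 to 0.04. Across genes, which are not independent replicates, the log2 ratio of library 2 to library 1 had a Spearman rho of −0.63 with GC content and 0.38 with gene length. The part of base composition, length or library preparation in this spread was not tested. The order is seen in genes named above: Mki67, Top2a (104, 236 and 181 TPM), Lpl, Ddx3x, Ddr2, Ripk1, Casp1, Aim2 and Bcl2 were each lowest in library 1 and highest in library 2. So were Kitl (9.05, 34.5 and 20.7 TPM), Grem1 (28.4, 85.3 and 48.7 TPM) and the mitochondrially encoded mRNAs summed (16619, 30449 and 22478 TPM). The marker genes varied less, and the CVs of the expressed necroptosis genes ran from 1.68% to 18.0%. The summed level of the 13 necroptosis genes was 703, 719 and 693 TPM.

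**Figure D5:**
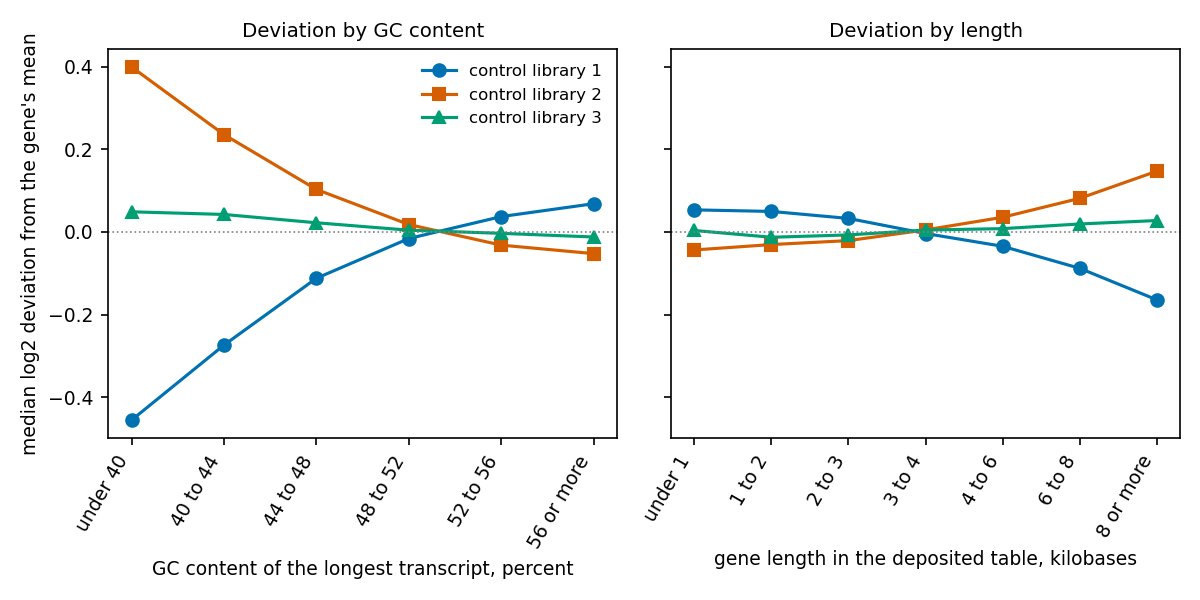
Median log2 deviation of a gene's level from its mean over the 3 control libraries (vertical axis), for expressed protein-coding genes binned by GC content of the longest transcript (left) and by gene length (right), 1 line for each library. Genes under 40% GC lie at −0.45 in library 1 and 0.40 in library 2, and library 3 stays near 0 in both panels.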

How the data were processed

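RNA-seq gene tables of the 3 control samples were used, and 3 columns of treated samples were not. The deposited count table holds whole-number read counts per gene, with gene lengths, per the file headers. The authors' FPKM table is those counts over gene length times 1 constant per column, so that 1 deposited FPKM is worth 3.91 to 4.67 TPM. HISAT2 2.1.0, RSEM 1.3.1, DESeq2 1.24.0, GRCm38 and mm10 are named, with no role, in the submitters' processing notes. Strand use and the handling of shared reads are not given in the sources used here.

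TPM was computed from counts and deposited lengths over all 54532 genes (Python 3.11.15), without imputation or filtering. Columns were tied to the group by name, not to a sample. Nothing was tested between groups. The spread was fitted with edgeR 4.0.16 (intercept only, TMM, minimum count 10) and, as an alternative, DESeq2 1.42.0, and checked on simulated counts. GC content came from the longest GENCODE vM21 transcript, and promoters from RefSeq (GRCm38.p6). A symbol with several rows was read at its highest level.

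The members, 32 gene lists and 25 families were chosen with earlier results of these data known. Genes named are the 25 highest, the 6 highest and up to 6 uncounted members of each list, all members of lists of up to 15, members at 0 in 1 library and at 10 counts or more in another, the 5 markers, and the 10 most and 10 least variable genes. Some members are not reported here. Other names were chosen after their values were seen.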

Additional observations from a re-analysis of the deposited data

How the results depend on the processing

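The 3 libraries and the depth of each limit these values: a gene at a few counts cannot be placed, and no test was made. The count of 12479 expressed genes ran from 9563 at 5 TPM to 13582 at 0.5 TPM and was 9946 at 1 deposited FPKM, and leaving out 1 library at a time gave 12668 to 13018. The 31557 genes without a count became 32553 to 33083 with 1 library left out. The share of the 100 most abundant genes, 28.8% of TPM, was 17.6% as a share of counts, 28.0% without mitochondrially encoded genes and 25.2% without ribosomal protein genes, and 28.5% to 29.2% with 1 library left out. The median CV was 6.94% to 10.5% with 1 library left out and 12.8% on deposited FPKM. The common biological coefficient of variation of 0.166 ran from 0.104 without library 1 to 0.228 without library 3. The square root of the median of DESeq2's gene-wise dispersions, another summary on the same scale, was 0.0735. Of the 32 list counts, 29 stayed within 1.5 times at 5 TPM and at 1 deposited FPKM, and the exceptions at both were cartilage and bone (3 members), neural and glial (0) and pattern recognition (9). No paired analysis was possible because only 1 group was described.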

Other observations

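Transcription factor genes were expressed at much the same rate as all protein-coding genes, with 747 of 1451 (51.5%) at 1 TPM or more in every library and 370 without a count. The families differed: 35 of 48 bZIP genes and 10 of 10 E2F genes were expressed, against 66 of 229 homeobox genes and 4 of 17 T-box genes. The highest members, chosen after their values were seen, were the stress regulator Atf4 (1389, 1313 and 1333 TPM) and the cold-shock domain gene Ybx1 (1325 ± 42 TPM). Ybx3 had 744 ± 54 TPM, Atf5 488 ± 63 TPM and the AP-1 gene Fosl1 305 ± 18 TPM. Hmga2, a chromatin architecture gene typical of embryonic mesenchyme, had 185, 211 and 190 TPM. Its relative Hmga1b (886 ± 92 TPM) stood above Hmga1 (435 ± 35 TPM), and reads shared between these near-identical genes could make both uncertain.

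Of 361 solute carrier genes 178 were expressed (49.3%, near the 47.9% of all protein-coding genes), with the mitochondrial ADP/ATP carrier Slc25a5 (1160 ± 16 TPM) and the amino acid transporter Slc7a5 (472 ± 35 TPM) among the highest. Of 100 cytochrome P450 genes 18 were expressed, and Cyp51, the sterol demethylase of cholesterol synthesis, had 802, 861 and 812 TPM, while the next, Cyp20a1, had 105 ± 7 TPM. Among RNAs not annotated as protein-coding, AI506816 had 1484 ± 38 TPM and the small nucleolar host gene Snhg8 232 ± 18 TPM. The highest TPM of any feature, 17142 ± 1988, belonged to Gm23935, an annotated miRNA gene of 57 bases at chr16:11144125-11144181 within Zc3h7a on the opposite strand. It had 6286, 4664 and 6580 counts against 752, 1255 and 1065 for Zc3h7a, and a length so short makes its TPM hard to compare with others.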
